A study of Drosophila melanogaster with 26 samples.

Results

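The glue genes of the *Drosophila* larval salivary gland were followed across 26 arrays of whole late-L3 larvae. They were taken as every probe set annotated to *Sgs1*, *Sgs3*, *Sgs4*, *Sgs5*, *Sgs7*, *Sgs8*, *ng1*, *ng2* or *ng3*, which gave 10 probe sets for 9 genes, out of 18769 probe sets tested and 11982 genes with a probe set of their own. Each gene had 1 probe set, and 1 further probe set is shared by *ng1* and *ng2* and reads both. A probe set is a group of short oligonucleotides that together report 1 transcript, and its value here is an intensity. The rule uses gene names only.

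Glue is a mucin-rich secretion that fixes the animal to its substrate when it forms the puparium. The larval salivary gland makes it during the last larval instar under the control of the steroid hormone ecdysone, which is needed for the glue genes to come on and, when its titre climbs before pupariation, shuts them off again and starts the puffs of the early and late ecdysone genes. The timing of glue transcripts is therefore used as a reading of larval stage. *Sgs1*, *Sgs3* and *Sgs4* encode large secreted glue proteins with repeats, *Sgs5*, *Sgs7* and *Sgs8* encode smaller ones, and *ng1*, *ng2* and *ng3* (new glue) encode small secreted proteins of the same gland.

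The study asked which hypoxic responses need dHIFα, the product of *sima*, and which need the estrogen-related receptor dERR, and the arrays compared hypoxia (H) with normoxia (N) in 4 genotypes. These were *w1118* controls, *sima* mutants (homozygous for *sima07607*, a P-element insertion in an intron, selected as GFP-negative larvae of balanced parents), *ERR* mutants (*dERR1* over *dERR2*) and *sima ERR* double mutants (homozygous for *sima07607* and carrying *dERR1* over *dERR2*). Larvae with a partly cleared gut, 10 to 4 h before pupariation, were kept for 6 h at 25 °C in N or in 4% oxygen, and at least 10 larvae were pooled per biological replicate. *w1118* in H had 5 arrays and each of the other 7 groups had 3, so the number of arrays limits the precision of every value. RNA came from whole larvae, in which fewer salivary gland cells and less RNA per cell cannot be told apart.

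The *sima* probe set lay between 4.97 and 6.15 (log2 intensity) on the 12 arrays of *sima* and *sima ERR* larvae and between 7.62 and 8.36 on the other 14. The *ERR* probe set was dim throughout, at 4.13 to 5.33, and *sima ERR* larvae in N (4.92 to 4.99) overlapped *w1118* larvae in N (4.75 to 4.98), so it does not separate all genotypes. Within *w1118* in H, replicates 2 and 3 differed from each other by a mean of 0.162 log2 over all probe sets, where the pairs that join 2 or 3 with replicates 1, 4 or 5 differed by 0.372 to 0.454. No pair of arrays in a group held more than 38 identical values. The gland was represented on every array, with its transcription factor gene *sage* at 8.41 to 9.73.

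In the current genome annotation the glue genes lie in 4 places. *ng2*, *ng3* and *ng1* follow each other on the X chromosome, and *ng4*, *Pig1* and then *Sgs4* come after them. *Sgs8* and *Sgs7* are direct neighbours on chromosome arm 3L, with *CG33272* between them and *Sgs3*. *Sgs5* lies on 3R between *Sgs5bis* and *CG7606*, and *Sgs1* lies apart from the rest on 2L.

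The members fell into 3 kinds of behaviour. *Sgs3*, *Sgs4*, *Sgs5*, *Sgs7* and *Sgs8* stayed near the upper end of the intensity scale on every array, and their highest array was only 1.55 to 2.80 times their lowest. *Sgs1* varied 10.0-fold, from 189 to 1901. The *ng* probe sets varied far more, with 32.0-fold between the lowest and highest array for *ng3* and intensities of 26.6 to 1755 for *ng2*, 24.6 to 3551 for the shared *ng1/ng2* probe set and 9.85 to 3103 for *ng1*. The lowest values of these 3 probe sets lay under the median intensity of their arrays (35.4 to 45.4 over the arrays), near the bottom of the scale, so no fold is given for them.

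**Figure D1:**
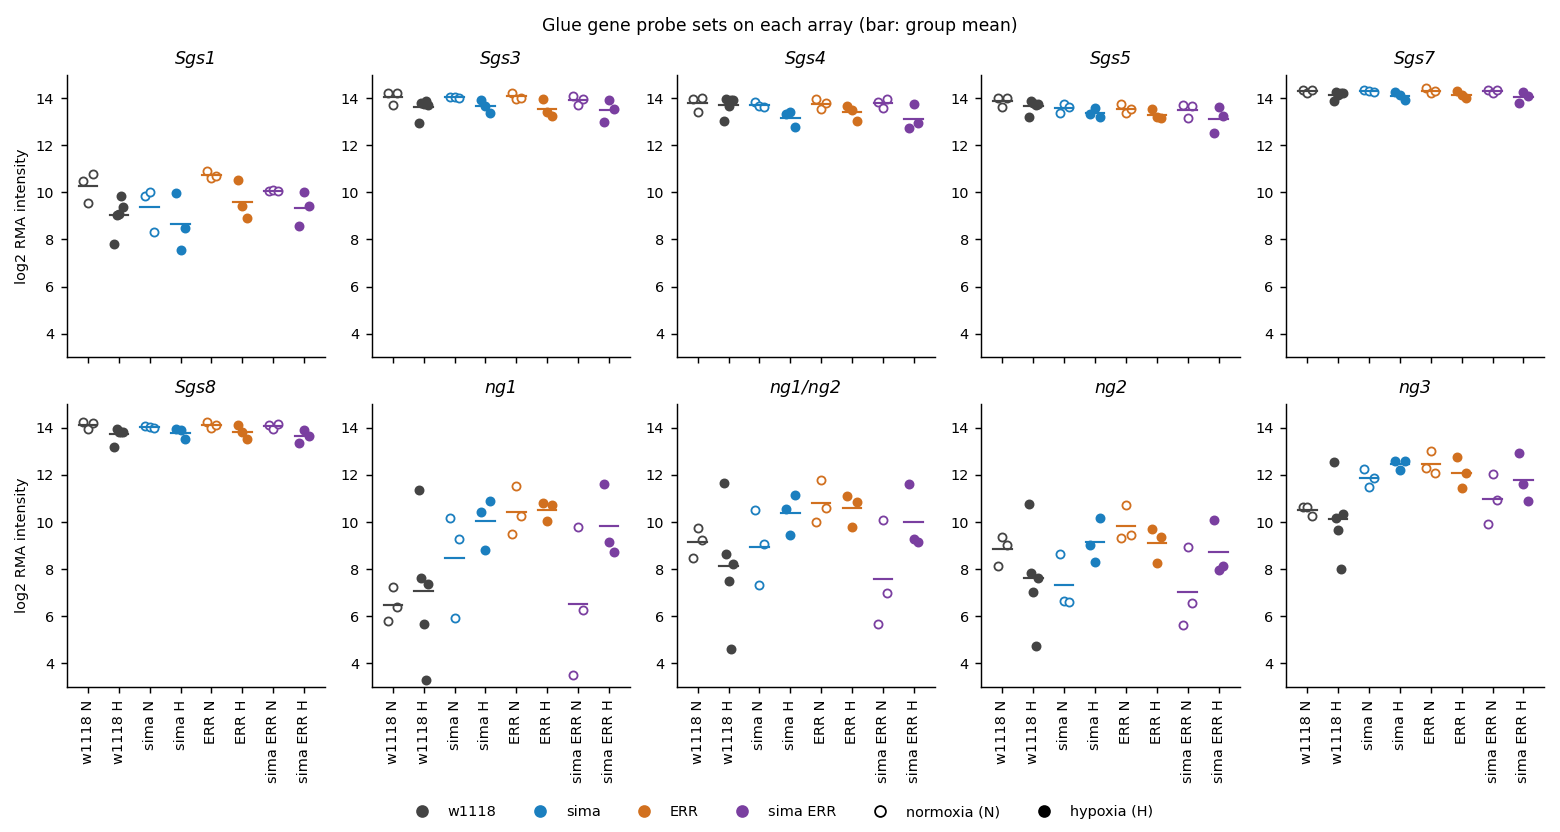
Log2 RMA intensity of each of the 10 glue probe sets (panels) on all 26 arrays, by genotype and oxygen (N, normoxia, open; H, hypoxia, filled), with bars at the group means. *Sgs* points other than *Sgs1* sit in a narrow band above 12.5, whereas *ng1* spans 3.30 to 11.60 and spreads widely within single groups.

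The *ng* probe sets varied widely between replicate arrays of a group. The within-group SD of *ng1* was 2.05 (log2), the 9th highest of the 18769 probe sets, and that of *ng1/ng2* was 1.66, of *ng2* 1.39 and of *ng3* 0.97, against a median of 0.187 over all probe sets. The within-group SD of *Sgs7* was 0.14, and those of the other *Sgs* probe sets were 0.23 for *Sgs8*, 0.29 for *Sgs5*, 0.31 for *Sgs3*, 0.33 for *Sgs4* and 0.75 for *Sgs1*. The intensity of *Sgs7* reached 21793, where the brightest probe set of any array was at 23240, and whether signal is compressed at this end of the scale was not tested.

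The first question was whether 6 h of hypoxia altered the glue genes of the control. *Sgs8* had intensities of 19258, 15655 and 19049 on the 3 *w1118* arrays in N and of 9410, 15633, 14520, 14513 and 14673 on the 5 in H. All 5 H arrays lay below all 3 N arrays, and replicate 1 in H lay well below the other 4. The log2 change was -0.40 (SE 0.16), a level 0.756 times that in N, which did not pass the test (adjusted p = 0.104, limma with Benjamini-Hochberg adjustment over all probe sets tested). A probe set counted as called when it changed at least 1.5-fold with an adjusted p under 0.01.

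*Sgs1* was at 1438, 746 and 1734 in N and at 226, 521, 538, 911 and 667 in H, and the groups overlapped through replicate 2 in N and replicate 4 in H. Its change of -1.24 (SE 0.51) was the largest among the *Sgs* genes and missed the threshold as well (adjusted p = 0.117). The remaining *Sgs* probe sets differed by -0.43 (*Sgs3*, 95% interval -0.88 to 0.02), -0.21 (*Sgs5*, -0.64 to 0.22), -0.17 (*Sgs7*, -0.39 to 0.05) and -0.11 (*Sgs4*, -0.59 to 0.38). None of the 10 glue probe sets was called in *w1118*, where 5.15% of all probe sets were. By limma 2 of the 10 had an unadjusted p under 0.05, which 30.1% of all probe sets had, and SAM, the permutation-based statistic of the study's own analysis, called 0.

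*ng3* had values of 1587, 1601 and 1215 on the *w1118* arrays in N, which is a narrow range. In H the 5 arrays read 5963, 1138, 822, 258 and 1284, a 23.1-fold spread that runs past the N range on both sides. *ng1* was at 55.0, 152 and 83.0 in N and at 2667, 199, 50.5, 9.85 and 167 in H, over 5 pools of the same genotype and treatment. The 9.85 is near the bottom of the scale, where *ng4* also lay (5.38 to 9.89). Replicate 1 was the highest and replicate 4 the lowest of the 5 for all 4 *ng* probe sets. The fitted changes were -0.37 for *ng3* (95% interval -1.74 to 1.01) and 0.60 for *ng1* (-2.31 to 3.52), and the second turned to -0.47 without replicate 1 and came to 1.55 without replicate 4.

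The same replicate 1 stood apart in other transcripts that were read on the arrays. Its mean over 23 ecdysone response genes was 6.77 (log2), where the other 4 H arrays of *w1118* lay between 7.37 and 7.90, and its mean over 6 muscle genes was 10.46 against 8.61 to 8.82. Replicate 4, lowest in the *ng* genes, had the highest ecdysone mean of all 26 arrays (7.90) and the lowest muscle mean (8.61). The part of stage or tissue content in the *ng* values was not tested.

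In the mutants the direction of the *Sgs* genes under hypoxia was the same. *Sgs8* read 17407, 16875 and 16387 in *sima* larvae in N and 15705, 15461 and 11733 in H, without overlap. In *ERR* larvae it read 19415, 16198 and 17909 in N and 17804, 14685 and 11670 in H, with overlap. In *sima ERR* larvae it read 18027, 16043 and 18406 in N and 10624, 15454 and 12873 in H, again without overlap. The changes were -0.25, -0.29 and -0.44, with standard errors of 0.18, and none passed (adjusted p = 0.519, 0.489 and 0.141, limma).

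Over the 6 *Sgs* probe sets and 4 genotypes, all 24 fitted differences were below 0, from -1.24 to -0.11, and in 9 of the 24 the H and N arrays did not overlap. These were 1 of 6 in *w1118*, 4 in *sima*, 2 in *ERR* and 2 in *sima ERR*, where all H arrays lay below all N arrays in 7.56%, 14%, 7.03% and 13.3% of all probe sets tested. With each array centred on its median, which added 0.15 to every change in *w1118*, *Sgs4* there turned to 0.04, and without replicate 1 of *w1118* in H it was 0.06, while the other 23 stayed below 0 under every alternative. Their medians were -0.31 in *w1118*, -0.31 in *sima*, -0.33 in *ERR* and -0.44 in *sima ERR*, where the median over all 18769 probe sets was 0.06, 0.02, 0.0078 and -0.0043. The members moved together from array to array and are not independent, and the adjusted p values of the 24 ran from 0.104 to 0.784. *Sgs4* stood at -0.54 in *sima* (SE 0.26, adjusted p = 0.252, limma), without overlap, and at -0.66 in *sima ERR* (SE 0.26, adjusted p = 0.129).

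Markers of the gland other than glue mostly had lower means in H as well. Of the 5 with a probe set of their own, of 6 listed, 4 had lower means in H in each genotype, with medians of -0.16 in *w1118*, -0.41 in *sima*, -0.22 in *ERR* and -0.50 in *sima ERR*, and 1 was called, *Pgant9* in *sima*. Their summed intensity (log2) was 10.20 to 10.52 in N and 9.78 to 10.05 in H in *sima* and 10.52 to 10.62 and 10.08 to 10.35 in *sima ERR*, without overlap, while in *w1118* (10.17 to 10.57 and 9.92 to 10.50) and in *ERR* (10.48 to 10.93 and 10.50 to 10.71) the ranges overlapped. A longer list of 8 gland genes, which holds these 5, had medians of -0.09 in *w1118*, -0.24 in *sima*, -0.09 in *ERR* and -0.33 in *sima ERR*. Its summed intensity went the other way in *sima*, with 11.46 to 11.55 in N and 11.68 to 11.70 in H, without overlap. In the other genotypes the N and H ranges of that sum overlapped. Its member *ps* was called higher in H in *w1118*, *sima* and *sima ERR*. The part of either list in the *Sgs* values was not tested.

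*Sgs1* showed the same order in the mutants with more spread. It read 928, 1019 and 316 in *sima* in N and 997, 189 and 356 in H, which overlapped. In *ERR* it read 1901, 1574 and 1642 in N and 1468, 680 and 478 in H, without overlap, and in *sima ERR* 1063, 1100 and 1078 in N and 383, 1033 and 677 in H, again without overlap. Its changes were -0.72, -1.12 and -0.75 (SE 0.58 each), with adjusted p values of 0.588, 0.387 and 0.551 by limma. The value in *sima* was -1.36 without replicate 1 in H and -0.17 without replicate 2 in H.

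**Figure D2:**
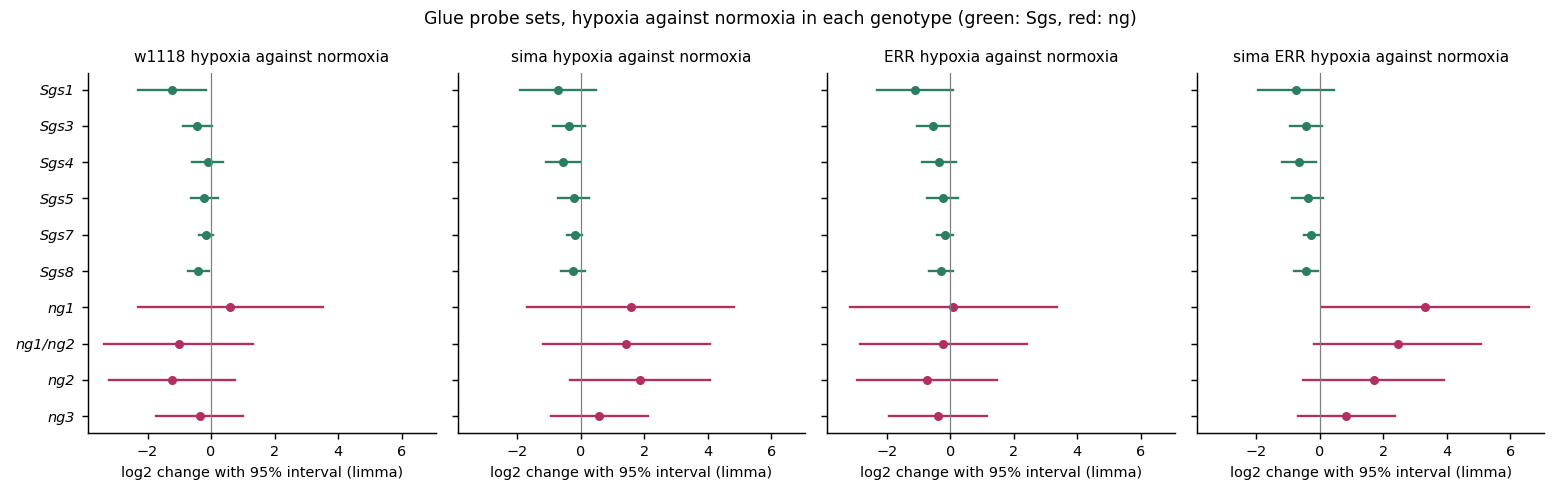
Log2 change of each glue probe set in hypoxia against normoxia, 1 panel per genotype, as the limma estimate (point) with its 95% interval (line), *Sgs* in green and *ng* in red. All 24 *Sgs* estimates lie left of 0, between -1.24 and -0.11 (*Sgs4* in *w1118* is at 0.04 with arrays centred on their medians), and the *ng* intervals are several times wider.

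None of the 10 glue probe sets was called for hypoxia in *sima* (3.6% of all probe sets called), *ERR* (0.389%) or *sima ERR* larvae (4.72%). At an unadjusted p under 0.05 limma had 1, 1 and 4 of the 10, beside 19.2%, 14.6% and 20.8% of all probe sets, and SAM called 0 in each. *ERR* was the genotype with the fewest calls over the whole array, so a count of 0 there says little.

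*ng1* gave the largest hypoxic difference of any member in *sima ERR* larvae. It was at 11.2, 882 and 77.0 in N and at 3103, 573 and 422 in H, so the N range reached into the H values, and its lowest value is near the bottom of the scale. The change was 3.31 (SE 1.56, adjusted p = 0.230, limma) and ranged from 1.80 to 4.95 as single arrays were left out. In *sima* larvae all 4 *ng* probe sets also had higher means in H (0.59 to 1.86), while in *ERR* larvae 3 of the 4 had lower ones (-0.73 to 0.09). These *ng* differences had adjusted p values between 0.230 and 0.987 over the 4 genotypes.

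The second question was whether larvae without *sima*, *dERR* or both differed from the control in the glue genes. The *Sgs* genes did not pass in any of these comparisons. In N their differences from *w1118* ran from -0.88 (*Sgs1* in *sima*) to 0.47 (*Sgs1* in *ERR*), and *Sgs7* differed by -0.02, 0.00 and -0.01 in *sima*, *ERR* and *sima ERR*, each with an interval of about 0.25 to either side (-0.27 to 0.23, -0.24 to 0.25 and -0.26 to 0.24). *Sgs5* had the lowest *Sgs* estimate in *sima ERR* in N, at -0.36 (95% interval -0.84 to 0.12).

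In H the *Sgs* differences from *w1118* lay between -0.56 and 0.58. *Sgs4* read 8397, 15720, 12948, 15336 and 15566 in *w1118*, 10244, 10906 and 7011 in *sima*, 12796, 11618 and 8336 in *ERR* and 6709, 13596 and 7925 in *sima ERR*. All 9 mutant arrays lay under replicates 2, 4 and 5 of *w1118*, 8 of the 9 also lay under replicate 3, and replicate 1 of *w1118* fell among the mutants. The *Sgs4* differences were -0.52, -0.30 and -0.56 (SE 0.23 each, adjusted p = 0.166, 0.404 and 0.112, limma). *Sgs5* in *sima ERR* was at -0.53 (SE 0.21, adjusted p = 0.0890).

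*ng3* had the lowest adjusted p of the members for *sima* and for *ERR* against *w1118*, in N and in H, though not for *sima ERR*. In N it read 4824, 2861 and 3705 in *sima* larvae and 5045, 8242 and 4391 in *ERR* larvae, and all 6 arrays lay above the *w1118* range of 1215 to 1601. How many of all probe sets separate a mutant from *w1118* in this way was not counted. For H against N in the mutants, also 3 arrays against 3, all H arrays lay below all N arrays in 7.03% to 14% of all probe sets. In *sima ERR* larvae in N *ng3* read 968, 4213 and 1971, which straddled the *w1118* range. The differences from *w1118* were 1.35 (2.55-fold, SE 0.74, adjusted p = 0.288, limma) in *sima*, 1.96 (3.90-fold, SE 0.74, adjusted p = 0.0959) in *ERR* and 0.46 (SE 0.74, adjusted p = 0.728) in *sima ERR*.

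With the spread taken from the *sima* and *w1118* arrays in N alone, the adjusted p for *sima* in N was 0.00089, and SAM called *ng3* there as well. These settings called 1937 and 2273 of all 18769 probe sets, where the main fit called 275. In *ERR* *ng3* was called when limma weighted the arrays by their quality (adjusted p = 0.00939). With these weights 996 of all probe sets were called, against 429 in the main fit. The adjusted p for *sima* ran from 0.00089 to 0.301 over the settings other than leaving out an array, and leaving out single arrays gave 0.333 to 0.477.

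In H *ng3* read 6086, 4677 and 6146 in *sima*, 6850, 2757 and 4325 in *ERR* and 7798, 3118 and 1887 in *sima ERR*. All 9 mutant arrays lay above replicates 2 to 5 of *w1118* (258 to 1284), and replicate 1 of *w1118*, at 5963, lay among them. The differences were 2.31 in *sima* (4.95-fold, SE 0.66, adjusted p = 0.0253, limma), 1.94 in *ERR* (3.84-fold, SE 0.66, adjusted p = 0.0444) and 1.66 in *sima ERR* (3.17-fold, SE 0.66, adjusted p = 0.0975), none under 0.01. Without replicate 1 of *w1118* in H they were 2.91, 2.54 and 2.26 with adjusted p values of 0.000785, 0.002 and 0.00497, and *ng3* was called in all 3. Of all 18769 probe sets 1300, 1821 and 1650 were called without that replicate, where the main fit called 856, 1157 and 1136. Without replicate 4, the lowest, the *ng3* differences were 1.77 in *sima* and 1.41 in *ERR*. In *sima ERR* the lowest value was 1.10, without its own replicate 1 in H, and the highest adjusted p over the arrays left out was 0.461. The 3 comparisons share the same 5 control arrays.

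Some markers of other tissues and of stage differed between some of the same groups. The summed intensity of the 6 muscle genes (log2) was 12.35 to 12.84 in *w1118* in N, 12.25 to 13.49 in *sima*, 12.08 to 13.87 in *sima ERR* and 13.99 to 14.84 in *ERR*. In H it was 12.06 to 14.01 in *w1118*, 12.58 to 13.98 in *sima*, 13.93 to 14.33 in *ERR* and 12.71 to 14.28 in *sima ERR*. Against *w1118* in N, 5 of the 6 had higher means in *sima* (median 0.12) and all 6 in *ERR* (1.62) and *sima ERR* (0.39). In H all 6 were higher in *sima* (0.70), *ERR* (1.44) and *sima ERR* (0.95). Of the 6, 2 were called in *ERR* in N (2.29% of all probe sets called) and 1 in *ERR* in H (6.16%). The summed intensity of the 23 ecdysone genes was 14.89 to 14.96 in *w1118*, 14.67 to 14.85 in *sima*, 13.94 to 14.51 in *ERR* and 14.54 to 15.02 in *sima ERR* in N, and in H 14.00 to 15.12 in *w1118* against 13.87 to 14.48, 14.15 to 14.47 and 13.46 to 14.61 in *sima*, *ERR* and *sima ERR*. This sum is weighted to *Fbp1*, also on the fat body list, with a median of 13.99 where the next gene, *br*, had 10.88. Gene by gene, 10 of the 23 were higher and 13 lower in *sima* in N, with a median of -0.10 and 0 called. In *sima ERR* in N 10 were higher and 13 lower (median -0.06), and in *ERR* in N 5 and 18 (-0.62). In H 3 were higher and 20 lower in *sima* (-0.63), 4 and 19 in *ERR* (-0.47) and 5 and 18 in *sima ERR* (-0.70). The medians over all probe sets in these comparisons lay between -0.0051 and 0.074. The 6 of 9 midgut genes with a probe set of their own summed to 14.92 to 15.15 in *w1118* and 15.38 to 15.43 in *sima* in N, and to 14.71 to 15.03 and 15.19 to 15.34 in H, without overlap. Of these 6, 1 was called in *ERR* against *w1118* in N (2.29% of all probe sets called) and 2 in H (6.16%). In *ERR* they summed to 15.09 to 15.47 in N, which overlapped *w1118*, and to 15.17 to 15.45 in H, which did not. In *sima ERR* both ranges (15.01 to 15.38 in N and 14.72 to 15.09 in H) overlapped *w1118*. The 10 testis genes summed to 12.99 to 13.40 in *w1118* in N and lay lower, without overlap, in *sima* (11.49 to 12.01), *ERR* (11.89 to 12.79) and *sima ERR* (11.14 to 12.51). In H their sum in *w1118* spanned 10.43 to 13.36, which held the ranges of all mutants. Of the 10 testis genes 0 were called in any mutant against *w1118*. The part of these lists in the *ng3* differences was not tested.

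**Figure D3:**
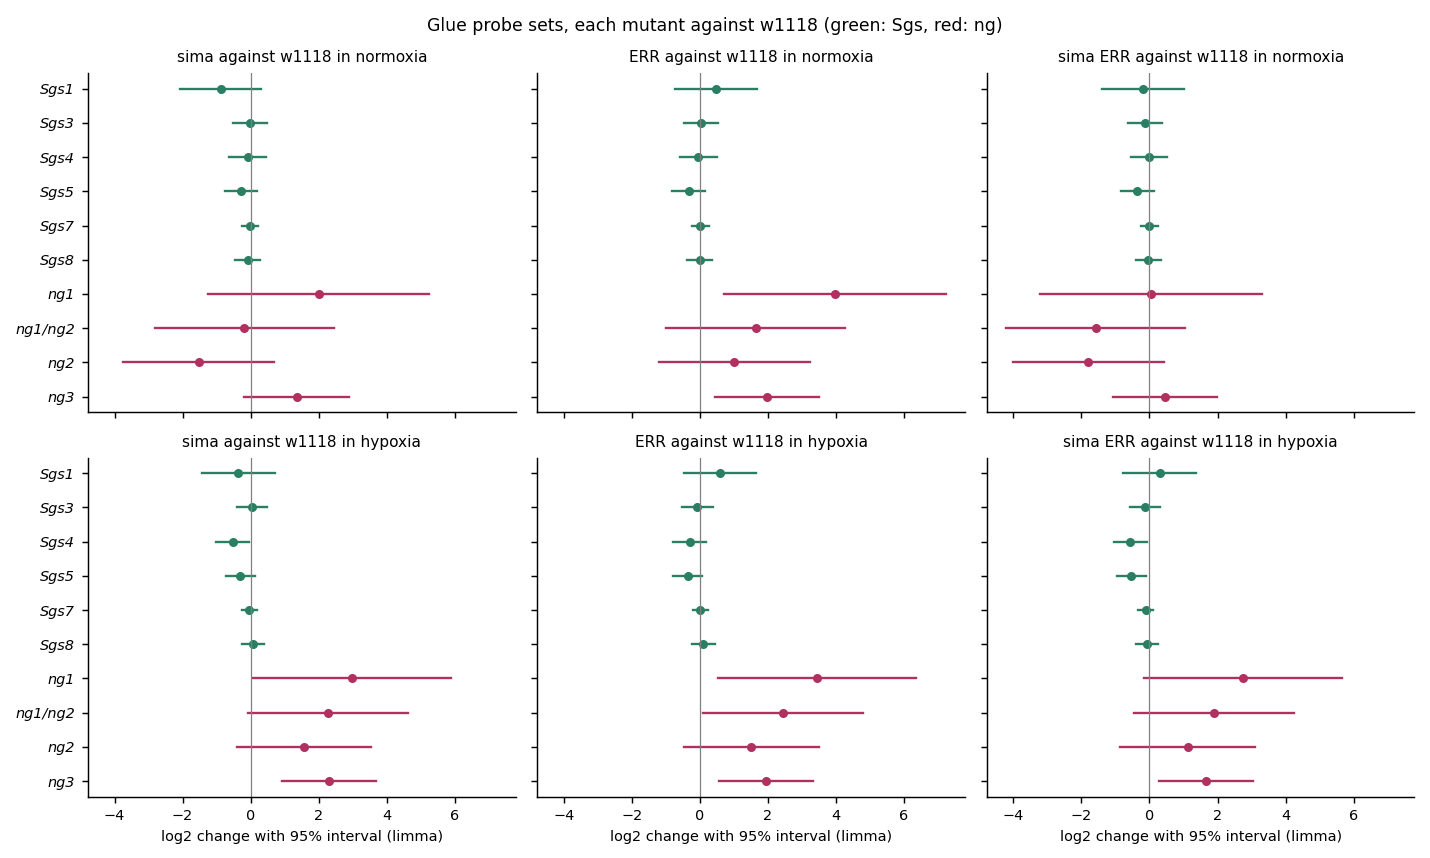
Log2 difference of each glue probe set between each mutant and *w1118*, in normoxia (top) and hypoxia (bottom), as the limma estimate with its 95% interval, *Sgs* in green and *ng* in red. The intervals of *ng3* exclude 0 in all 3 hypoxia panels (0.93 to 3.68, 0.57 to 3.31 and 0.29 to 3.04) before adjustment, and the *Sgs7* intervals are the narrowest.

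*ng1* had the largest difference of any member, between *ERR* and *w1118* larvae in N. It read 724, 2958 and 1226 in *ERR* and 55.0, 152 and 83.0 in *w1118*, without overlap, a separation whose share over all probe sets was not counted. The difference was 3.96 (log2, SE 1.56, adjusted p = 0.112, limma). In *sima* in N the 3 arrays read 1168, 61.4 and 617, and replicate 2 fell inside the control range. In H *ng1* read 1370.5, 450.0 and 1905 in *sima*, 1805, 1052 and 1681 in *ERR* and 3103, 573 and 422 in *sima ERR*, all above replicates 2 to 5 of *w1118* (9.85 to 199) and around replicate 1 (2667). The differences were 2.97, 3.45 and 2.75 (SE 1.40 each), with adjusted p values of 0.200, 0.0901 and 0.215. Without replicate 1 of *w1118* they were 4.05, 4.53 and 3.83 (adjusted p = 0.0318, 0.0121 and 0.0345, limma), and without replicate 4 they were 2.03, 2.51 and 1.81.

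*ng2* did not follow *ng1* in every comparison. *ng2* read 277, 668 and 515 in *w1118* in N, 404, 100.02 and 98.3 in *sima*, 644, 1704 and 707 in *ERR* and 49.0, 486 and 95.5 in *sima ERR*. It was lower than in *w1118* on 2 of the 3 *sima* arrays and on 2 of the 3 *sima ERR* arrays. The log2 differences in N were -1.53 in *sima*, 1.01 in *ERR* and -1.80 in *sima ERR* (SE 1.06 each). In H they were 1.57, 1.51 and 1.12 (SE 0.95 each). Adjusted p values of the 6 lay between 0.297 and 0.554. In *sima ERR* in N *ng1* differed by 0.05 (SE 1.56) and the shared *ng1/ng2* probe set by -1.58 (SE 1.27). In H the shared probe set differed by 2.27, 2.45 and 1.89 (SE 1.13 each).

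No glue probe set was called for a mutant against *w1118*. Over all probe sets the calls amounted to 1.47% for *sima*, 2.29% for *ERR* and 0.895% for *sima ERR* in N, and to 4.56%, 6.16% and 6.05% in H. At an unadjusted p under 0.05 limma had 0, 2 and 0 of the 10 glue probe sets in N (22.7%, 26.9% and 20.7% of all probe sets) and 3, 3 and 3 in H (23.6%, 31.9% and 27.0%), and SAM called *ng3* for *sima* in N and 0 in the other 5. Nor was any glue probe set called for an interaction, in which the hypoxic change of a mutant is set against that of *w1118*, where 0.314% (*sima*), 0.107% (*ERR*) and 0.48% (*sima ERR*) of all probe sets were. The nearest was *ng2* in *sima*, at 3.09 (95% interval 0.13 to 6.06, adjusted p = 0.341, limma). At an unadjusted p under 0.05 limma had 1, 0 and 0 of the 10 (14.6%, 9.17% and 13.9% of all probe sets), and SAM was not run for interactions. The *ng* intervals of the interactions reached from -4.88 to 7.08, so that large differences in hypoxic response were not detectable with this spread.

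Across the 8 groups the order of *ng3* means ran from *w1118* in H (10.14, log2) and *w1118* in N (10.51) through *sima ERR* in N (10.97) and in H (11.81), *sima* in N (11.86), *ERR* in H (12.08) and *sima* in H (12.45) to *ERR* in N (12.47). The ranges of neighbours in that order overlapped at each step. *ng1* also had *w1118* in N lowest (6.47) and *ERR* in N and H highest (10.43 and 10.52), with overlap between all neighbours. For *Sgs8* the 4 H groups (13.65 to 13.82) were all below the 4 N groups (14.04 to 14.13) in the order of means. *Sgs1* ran from *sima* in H (8.67) to *ERR* in N (10.73), and neighbours overlapped at every step, although all *ERR* arrays in N lay above all *sima* arrays in H.

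*ng1* and *ng2* did not keep a constant distance from each other. The log2 difference between their probe sets, whose zero has no meaning, was -2.37 ± 0.25 (SD, n = 3) in *w1118* in N and -0.53 ± 0.87 (SD, n = 5) in H. It was 1.16 ± 1.71 in *sima*, 0.59 ± 0.36 in *ERR* and -0.52 ± 1.505 in *sima ERR* larvae in N, and 0.87 ± 0.45, 1.41 ± 0.33 and 1.10 ± 0.47 in H (SD, n = 3 each). The lowest mutant array (-2.13, in *sima ERR* in N) came close to the highest *w1118* array in N (-2.14). On that array *ng1* was at 11.2, and on replicate 4 of *w1118* in H at 9.85, near the bottom of the scale, where the difference is no reading of *ng1*.

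The glue genes split into blocks when arrays were compared within their groups. The deviations of *Sgs3*, *Sgs4*, *Sgs5*, *Sgs7* and *Sgs8* from their group means correlated at r = 0.81 to 0.96 over the 26 arrays (10 pairs, median 0.91), and those of the 4 *ng* probe sets at 0.91 to 0.98 (6 pairs). *Sgs1* followed the other *Sgs* genes more loosely (0.47 to 0.75). Between an *Sgs* gene other than *Sgs1* and an *ng* probe set all 20 correlations were below 0, from -0.69 to -0.49, and *Sgs1* had -0.38 to -0.33. All r values here are descriptions over arrays that share their scaling, and carry no test.

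Averaged by gene, with each gene centred on its mean over the arrays, the 6 *Sgs* and 3 *ng* genes correlated at r = -0.43 over the levels of the 26 arrays and at -0.58 over the deviations. In 6 of the 8 groups the array highest in the *ng* genes was the lowest in the *Sgs* genes. The exceptions were *sima* in N and *ERR* in H. The lowest *Sgs* means of all were on replicate 1 of *sima ERR* in H (-0.77) and replicate 1 of *w1118* in H (-0.75), which had *ng* means of 2.09 and 2.11, exceeded only by replicate 2 of *ERR* in N (2.30).

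**Figure D4:**
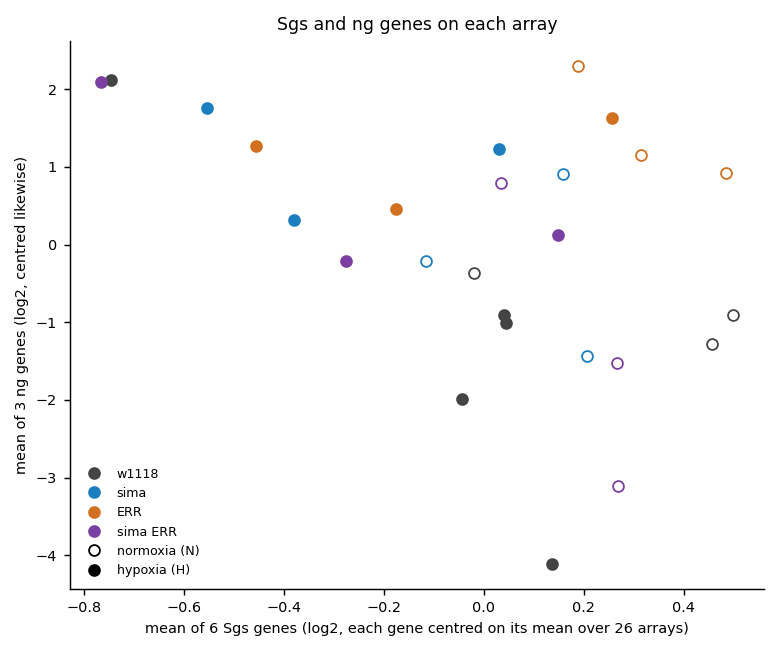
Mean of the 6 *Sgs* genes (x, log2, each gene centred on its mean over 26 arrays) against the mean of the 3 *ng* genes (y, centred likewise), 1 point per array, coloured by genotype, open in normoxia and filled in hypoxia. Arrays with the lowest *Sgs* means (-0.77 and -0.75) have *ng* means above 2, and the lowest *ng* mean (-4.11) is on replicate 4 of *w1118* in hypoxia.

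The *ng* genes ran against the ecdysone response genes and with the muscle genes. Of 28 ecdysone genes listed, 23 had a probe set of their own, and over the 26 arrays their mean correlated with the *ng* mean at r = -0.83 (Spearman's rho -0.83), at -0.80 without the 2 arrays farthest from the median and at -0.86 within groups. The value was -0.79 over the 12 N arrays and -0.93 over the 14 H arrays. Of the 23 genes 18 had a negative r with the *ng* mean, and 13 were below -0.5. For the 6 of 9 muscle genes with a probe set of their own r was 0.84 (rho 0.87, 0.82 without the 2 farthest arrays, 0.83 within groups). Fat body genes, 4 of 7 with a probe set of their own, gave -0.51.

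The *Sgs* mean correlated with the ecdysone genes at 0.56 (rho 0.48, 0.39 without the 2 farthest arrays) over the 26 arrays and with the muscle genes at -0.27 (-0.50 within groups). With the fat body genes, which share *Fbp1* with the ecdysone list, it correlated at 0.57 (0.32 within groups). These values differed between oxygen levels, with -0.13 over the 12 N arrays and 0.61 over the 14 H arrays for the ecdysone genes and -0.41 and 0.45 for the fat body genes. In 6 of the 8 groups the array highest in the *ng* genes was the lowest in the ecdysone genes, and in 7 of the 8 it was the highest in the muscle genes.

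**Figure D5:**
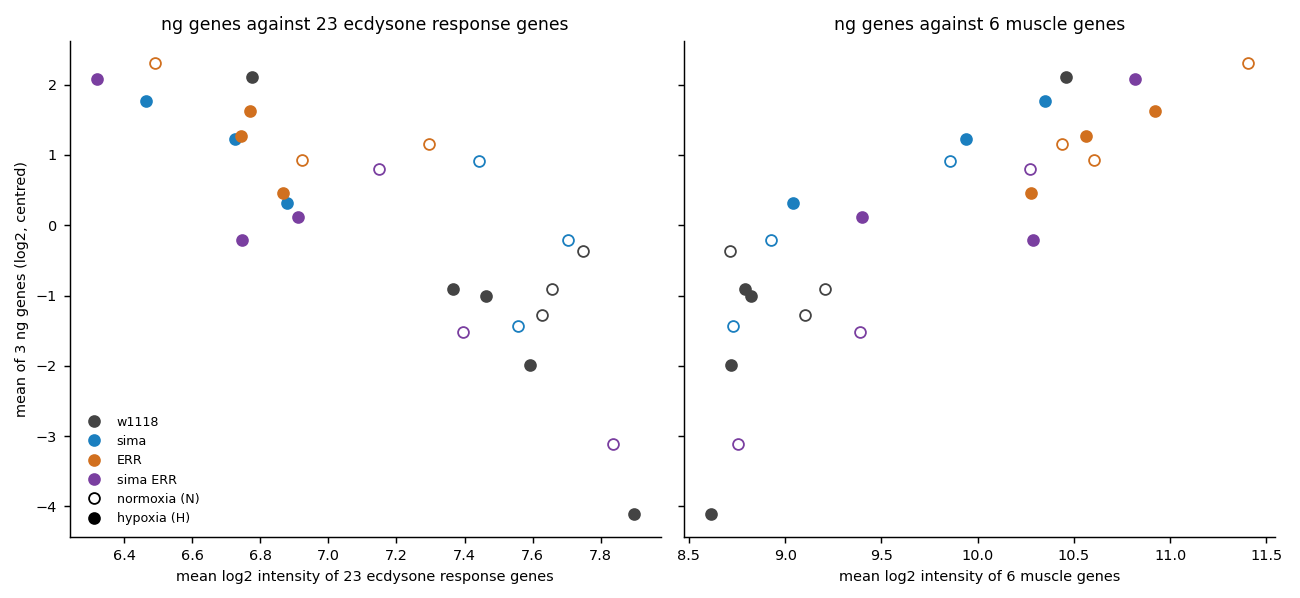
Mean of the 3 *ng* genes (y, log2, centred on each gene's mean over 26 arrays) against the mean log2 intensity of 23 ecdysone response genes (left) and of 6 muscle genes (right), 1 point per array, coloured by genotype, open in normoxia and filled in hypoxia. The points fall with the ecdysone mean (r = -0.83) and climb with the muscle mean (r = 0.84), and *w1118* in hypoxia spans -4.11 to 2.11 of the *ng* axis.

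Over the 13 comparisons 33 of the 299 tests of the ecdysone genes were called (11%), where 2.78% of the tests of all probe sets were. Of the 23 ecdysone genes, 7 were called for hypoxia in *sima* larvae, where 3.6% of all probe sets were. The transporter gene *E23* fell by 3.25 (log2, SE 0.60, adjusted p = 0.00132, limma), the ecdysone-inducible *ImpE1* by 3.02 (SE 0.71, adjusted p = 0.00924) and *br*, which encodes the Broad transcription factors needed for glue gene expression, fell by 2.28 (SE 0.32, adjusted p = 7.19e-05). The nuclear receptor gene *ftz-f1* rose by 2.04 (SE 0.35, adjusted p = 0.000704). Of the 7, 2 rose and 5 fell. In *sima ERR* larvae (4.72% of all probe sets called) 2 rose and 4 fell, among them *E23* (-2.80), *br* (-1.97), the nuclear receptor gene *Hr39* (-1.58) and the zinc finger gene *chinmo* (1.48). In *w1118* (5.15% of all probe sets called) 2 rose, *ImpL2* (1.22) and *chinmo* (1.09), and *Eip63E*, which encodes a cyclin-dependent kinase, fell by 0.73. In *ERR* larvae (0.389% of all probe sets called) limma called 0 of the 23, with 3 at an unadjusted p under 0.05.

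Against *w1118* in H, 4.56%, 6.16% and 6.05% of all probe sets were called in *sima*, *ERR* and *sima ERR*. Of the 23 genes 2 rose and 5 fell in *sima*, where *E23* was at -2.22, *ftz-f1* at 1.47, *br* at -1.37 and *ImpL2*, which encodes an insulin-binding protein, at -1.19. In *ERR* larvae 3 fell, *Eip63E* (-1.91), *ImpL2* (-1.20) and *Kr-h1* (-1.10), and in *sima ERR* 5 fell, with *Eip63E* at -1.96, *ImpL2* at -1.61, *br* at -1.33 and *Hr39* at -0.84. In N limma called 0 of the 23 in *sima* (4 at an unadjusted p under 0.05) and *Eip63E* alone in *ERR* (-2.43) and in *sima ERR* (-2.75). Of all probe sets 1.47%, 2.29% and 0.895% were called there, in the same order. The *ng3* means lay above those of *w1118* in each of these 6 comparisons, without a call.

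Of 9 other genes of the gland listed, 8 had a probe set of their own, and 7 of their 104 tests over the 13 comparisons were called (6.73%, with 32 at an unadjusted p under 0.05), where 2.78% of the tests of all probe sets were. Of these *ps*, which encodes the splicing factor Pasilla, was called higher in hypoxia in *w1118* (0.63), *sima* (0.68) and *sima ERR* (0.73), as well as in *ERR* against *w1118* in N (0.84) and in *sima* against *w1118* in H (0.71). *PH4alphaSG2*, a prolyl hydroxylase gene of the gland, was 1.61 higher in *ERR* than in *w1118* in N (adjusted p = 0.00629, limma), and *Pgant9*, whose product glycosylates mucins, fell by 0.61 in *sima* in hypoxia (adjusted p = 0.00327). Of the 9 late puff 71E genes with a probe set of their own, of 11 listed, limma called 0 of 117 tests over the 13 comparisons, with 13 at an unadjusted p under 0.05. Of the tests of all probe sets 2.78% were called. *Eig71Eh*, *Eig71Ei*, *Eig71Ej* and *Eig71Ek* lay at 2.33 to 3.52 (log2) on all arrays, near the bottom of the scale, so their tests say little. The mean of all 9 late puff genes correlated with the *ng* mean at r = -0.72 and with the *Sgs* mean at 0.37.

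Some genes next to the members varied like one block or the other. *Sgs5bis*, the neighbour and relative of *Sgs5*, ranged from 6252 to 17661 in intensity and *CG7606*, on the other side, from 5624 to 15897. Their deviations from the group means correlated with those of the *Sgs* mean at 0.89 and 0.91 and with those of the *ng* mean at -0.59 and -0.62. *Pig1* (499 to 2212) and *CG14265* (724 to 8160), which lie on either side of the *ng* genes, had r of 0.74 and 0.62 with the *ng* mean and -0.26 and -0.02 with the *Sgs* mean, also over deviations. *Pig1* is the direct neighbour of *Sgs4*, and *ng4* lies between it and *ng1*. The neighbours *hoe2*, *synr*, *CG7512* and *CG10793* followed neither block, with r over deviations between -0.20 and 0.24, and *synr* and *CG7512* were dim (6.42 to 15.3). *CG14265*, the direct neighbour of *ng2*, was called higher than in *w1118* in H in *sima* (1.67, adjusted p = 0.00254, limma), *ERR* (1.55, adjusted p = 0.00379) and *sima ERR* (1.84, adjusted p = 0.000958). None of the other neighbours named here was called in any comparison. *ng4* was at 5.38 to 9.89 on all arrays, near the bottom of the scale, and *CG33272*, between *Sgs7* and *Sgs3*, was at 50.3 to 94.2.

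Over the arrays, the levels most like the mean of all 9 glue genes, out of 11973 other genes, were those of *CG18493* (r = 0.90), the muscle gene *Mf* (0.85), *Amph* (0.85), *CG17145* (0.85) and *CG18649* (0.84). By Spearman's rho they held places 4, 2, 1, 41 and 34. By deviations from the group means they were *CG18649* (0.88), *CG18493* (0.87), *CG13460* (0.84), *Sodh2* (0.84) and the mucin gene *Muc55B* (0.83). Since the *ng* genes vary most, that mean follows them. The genes most like the *Sgs* mean alone, a split made after the values were seen, were *Eig71Ee* (0.89), a 71E gene also transcribed in the larval gland, *CG7606* (0.88) and *Sgs5bis* (0.83), and for the *ng* mean alone *CG18649* (0.93), *CG18493* (0.91) and *CG31313* (0.88).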

How the data were processed

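Whole late-L3 larvae were profiled on Affymetrix Drosophila Genome 2.0 arrays. The authors deposited RMA intensities on a linear scale, already background-corrected, normalized and summarized per probe set. Neither the labels nor the methods state the RMA release or whether the 26 arrays went through it as a single set. Groups came from the sample labels, and *w1118* in H has 5 arrays because the labels give it 5 replicates.

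The log2 of each deposited intensity was taken. Of 18952 probe sets 183 controls were left out, and of all probe sets 13647 list 1 gene, 402 several and 4903 none. Names come from the platform annotation, and gene order from the RefSeq gene table (Release 6 plus ISO1 MT), from which no coordinate was taken. limma 3.58.1 in R 4.3.3 was fitted as 1 model of 8 groups without a replicate block, with no filter on dim probe sets, and 13 comparisons were adjusted over all 18769 probe sets. A call needed a 1.5-fold change and an adjusted p under 0.01. Scripts were tested on simulated arrays. The members and the gene lists were chosen with earlier results of these data known. Named genes were all members, at most 4 called list genes per comparison by size of change, and the 5 genes most like the members by Pearson r over levels and over deviations. Other genes, such as chromosome neighbours of the members and dim late puff genes, were named outside this rule. The probe set with the highest mean stood for a gene of a list. Lists used only probe sets that list 1 gene, so a list gene without one can still be on the array.

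The replicate numbers are the labels' own and no label ties equal numbers to a shared batch. Alternatives were median centring, quantile normalization, a mean log2 of at least 5, an adjusted p under 0.05 with no fold limit, a fit on the groups of a comparison alone, array weights, a replicate block, SAM over all distinct permutations and leaving out each array. Added after the values were seen were *w1118* in H by replicates 1 to 3 alone and with replicates 2 with 3 and 4 with 5 averaged. Pictures were drawn with matplotlib 3.10.9.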

Additional observations from a re-analysis of the deposited data

Results flagged for a closer look

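In *w1118* in H, the only group with enough arrays for the test, replicate 1 lay far below the other 4 arrays for 4 of the 10 glue probe sets. The gap to its nearest neighbour, as a share of the whole range, was 0.798 for *Sgs3*, 0.793 for *Sgs5*, 0.755 for *Sgs7* and 0.854 for *Sgs8*, each above Dixon's 95% critical value of 0.71. Chance alone flags about 1 in 20 groups, and these 4 genes correlate closely, so they are not 4 separate cases. Without replicate 1 the *Sgs8* change in H against N of *w1118* came to -0.27 in place of -0.40. No difference between genotypes in the hypoxic response passed the test for any glue probe set.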

How the results depend on the processing

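The number of glue probe sets called, 0 in all 13 comparisons, stayed at 0 in 215 of 225 recomputed counts. The count was 1, *ng3*, for *sima* and for *ERR* against *w1118* in H at an adjusted p under 0.05 with no fold limit, which 2174 and 3525 of all probe sets passed. It was 1, *ng3*, for *sima* against *w1118* in N by the groups of the comparison alone and by SAM, and with array weights 1 for *ERR* in N (*ng3*), 1 for *sima ERR* in N (*ng2*) and 1 for *sima* in H (*ng3*). Of all 18769 probe sets the groups alone called 1937 and SAM 2273, and array weights called 996, 1522 and 1013 in these comparisons. Leaving out single arrays gave 0 to 1 for *sima*, *ERR* and *sima ERR* against *w1118* in H, with 1 only without *w1118* replicate 1 in H (1300, 1821 and 1650 of all probe sets called), and 0 elsewhere. With *w1118* in H reduced to replicates 1 to 3, or averaged in pairs, the count was 0 in all 7 comparisons, and the *ng3* difference of *sima* in H was 1.66 in the lower of the 2. With the replicate block the count was 0 in all 13 comparisons. Arrays with equal numbers did not deviate together in a regular way. Their r lay between -0.53 and 0.52, with 11 of 30 pairs above 0.1, and in 0 of 10 comparisons did all 3 pairs exceed 0.1. Some comparisons had only positive values, with 0.518, 0.0872 and 0.51 for *sima ERR* and 0.0231, 0.226 and 0.35 for *sima* against *w1118* in H. Replicates 4 and 5 of *w1118* occur in 1 group only, so the block takes them out of the estimate. Of 2250 recomputed member changes 2066 kept the sign of the main value and 184 turned, none past the threshold and all with a main change of at most 1.02. Median centring added 0.15, 0.10 and 0.15 to every log2 difference of *sima*, *ERR* and *sima ERR* from *w1118* in N and 0.15 to those of H against N in *w1118*. The cause of these shifts was not tested. With 3 arrays in most groups and within-group SDs near 2 for *ng1*, changes of several-fold in the *ng* genes could not be called.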
